A study of Mus musculus with 30 samples.

Results

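RNA levels of 9 genes of the intercalated disc, the specialised end-to-end contact between heart muscle cells, were compared in the left ventricle of mice. The genes were chosen by name, for what their proteins do: *Dsp*, *Pkp2*, *Jup*, *Dsg2* and *Dsc2* of the desmosome, *Cdh2* and *Ctnna3* of the adherens junction, *Gja1* of the gap junction, and *Tjp1*, a scaffold at its edge. They are 9 of the 49143 genes present in the tables of both studies, and all 9 had enough counts to be tested in each study, among 11985 (peptide) and 12146 (antibody) genes tested. None of them passed the test in either comparison.

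The intercalated disc holds neighbouring cardiomyocytes together and lets current pass between them. Desmosomes couple the desmin filaments of adjacent cells through the cadherins desmoglein and desmocollin, which bind plakoglobin, plakophilin and, through these, desmoplakin. Adherens junctions tie the actin of the sarcomeres to N-cadherin, and gap junction channels, made mostly of connexin 43 in the ventricle, carry the impulse from cell to cell. Inherited loss of desmosome proteins is known to cause arrhythmogenic cardiomyopathy, in which connexin 43 is often lost from the disc.

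RNA was sequenced from the left ventricle of 30 wild-type male mice of the C57BL6J strain per the study's methods (C57BL6 in the deposited growth notes). In the peptide study, 7 mice received Aβ42, recombinant human amyloid beta, and 7 received ScrAβ42, a scrambled peptide, by daily intraperitoneal injection for 4 weeks. The labels give the dose as 1 mg per day, whereas the text of the study gives the same figure in µg. The mice were 12 weeks old at the start per the labels, whereas the study's methods give the peptide mice a range that begins somewhat younger. In the antibody study, 8 mice received 3D6, an antibody that neutralises amyloid beta, and 8 received a control antibody, weekly at 0.75 mg/kg. The text of the study gives 4 months for this, and its methods a shorter time. The study's methods place both groups on a high-fat diet, whereas the deposited design has both groups also receiving Aβ42, and this difference was not resolved. Mice without treatment were not analysed here. The labels number each mouse, so each library was taken as 1 animal, and no sequencing batch is given.

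The libraries of the peptide study held 4478991 to 6015767 counts each, and those of the antibody study 6397192 to 8310478. Levels are given as CPM, a gene's counts relative to the total of its library. Libraries were scaled within each study, so CPM are not compared between studies. Heart muscle RNA was present in each library, with 8 cardiomyocyte markers summing to 42401 to 89941 CPM per heart with the peptides and 47796 to 60057 CPM with the antibodies, but most of these markers are shared by ventricle and atrium. The ventricular light chain *Myl2* was at 2617 to 7622 CPM in the antibody study hearts. Atrial RNA was not evenly present. The summed level of 5 atrial markers (*Sln*, *Myl7*, *Myl4*, *Bmp10* and *Mybphl*) exceeded 1000 CPM in 4 Aβ42 hearts, in 1 ScrAβ42 heart and in 1 control antibody heart (mouse 15). An Aβ42 heart, called the most atrial heart below for its summed level, stood furthest apart, with 8388 CPM of atrial markers and 801 CPM of *Myl2* against 3671 CPM or more of *Myl2* in every other peptide study heart. By the atrial marker score used as a covariate below, the mean z-score of the markers' log2 CPM, another Aβ42 heart was higher, at 1.52 against 1.38. In such bulk RNA, fewer cells of a type and less RNA per cell cannot be told apart. For the members, values without these hearts or with a covariate for them are given where they differed most.

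Promoter windows of 250 bases before to 50 after the start, from RefSeq on GRCm38.p6, were examined for only 5 of the 9 members. Those of *Gja1* (chr10:56377050-56377349, plus strand) and *Dsp* (chr13:38151044-38151343, plus strand) are shown because the levels of these genes moved together from heart to heart in the antibody study while their promoters differ in composition. Capitals mark matches on either strand to the GC box GGGCGG, the GATA motif AGATAA and the T-box motif AGGTGT, which do not overlap in these windows.
Gja1: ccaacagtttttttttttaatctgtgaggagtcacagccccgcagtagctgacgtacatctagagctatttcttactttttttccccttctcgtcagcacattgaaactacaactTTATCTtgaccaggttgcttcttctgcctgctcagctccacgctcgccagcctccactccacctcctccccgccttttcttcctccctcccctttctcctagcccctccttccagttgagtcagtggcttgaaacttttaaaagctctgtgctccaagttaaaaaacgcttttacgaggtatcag
Dsp: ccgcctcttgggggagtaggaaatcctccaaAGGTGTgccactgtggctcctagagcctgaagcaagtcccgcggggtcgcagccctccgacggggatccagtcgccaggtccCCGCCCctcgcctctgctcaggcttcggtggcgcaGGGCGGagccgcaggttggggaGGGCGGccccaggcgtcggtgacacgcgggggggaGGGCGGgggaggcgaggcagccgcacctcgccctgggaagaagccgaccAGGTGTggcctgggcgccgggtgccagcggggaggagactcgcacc
The *Gja1* window, with 47.7% G and C, held 1 GATA match and 0 GC boxes. The *Dsp* window, with 73.0% G and C, held 4 GC boxes and 2 T-box matches. Among 32544 mouse promoter windows of the same length, 35.9% held a GC box, 11.2% the GATA motif and 13.8% the T-box motif. Neither window held the NKX2-5 motif CAAGTG, found in 13.5% of windows, or the MEF2 motif, found in 0.559%. A match is a description of letters, not a bound site.

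The members lie on 6 chromosomes of the GRCm38 build. *Dsp* is at chr13:38151294-38198577 on the plus strand, *Pkp2* at chr16:16213318-16272712 on the plus strand and *Jup* at chr11:100368958-100397763 on the minus strand. The desmosomal cadherin genes lie in 1 cluster on chromosome 18, with other desmocollin and desmoglein genes between *Dsc2* at chr18:20030633-20059554 on the minus strand and *Dsg2* at chr18:20558074-20604521 on the plus strand, and *Cdh2* is on the same chromosome at chr18:16588877-16809246 on the minus strand. *Gja1*, at chr10:56377330-56402513, and *Ctnna3*, a gene of over a megabase at chr10:63430098-65003667, share chromosome 10 and are on the plus strand. *Tjp1* is at chr7:65296165-65527781 on the minus strand. All 9 are annotated as protein coding, and the values below count their whole transcripts, exons and untranslated regions together.

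The genes differed in level by over an order of magnitude. Per kilobase of transcript, *Dsp*, which encodes desmoplakin, the anchor of desmin, had the highest mean in every group. It was at 182 ± 27.5 CPM per kb in ScrAβ42 hearts (SD, n = 7) and 99.0 ± 36.9 CPM per kb in control antibody hearts (SD, n = 8). *Jup*, encoding plakoglobin, came next in these groups at 98.0 ± 13.2 and 69.0 ± 6.94 CPM per kb, and *Gja1* followed at 76.1 ± 7.15 and 60.0 ± 15.3 CPM per kb. The ranges of *Dsp* and *Jup* overlapped in each group except the ScrAβ42 hearts. In the control antibody heart of mouse 22, *Dsp* was below *Jup*, at 33.9 against 53.8 CPM per kb. The ranges of *Jup* and *Gja1* overlapped in all 4 groups, so the order of these 2 genes did not exceed the spread between hearts. *Pkp2* stood above *Cdh2* in the peptide study and below it in the antibody study, with overlapping ranges in each group except the 3D6 hearts, where *Cdh2* was at 39.9 CPM per kb or more and *Pkp2* at 37.5 or less. *Dsg2*, *Tjp1* and *Dsc2* were lower, at 24.7 ± 1.84, 19.7 ± 1.33 and 13.4 ± 3.01 CPM per kb in ScrAβ42 hearts. *Ctnna3*, which encodes alpha-T-catenin, was the lowest member, at 6.99 ± 1.53 CPM per kb in ScrAβ42 hearts and 3.60 ± 1.32 in control antibody hearts. The order was the same in each group when the longest coding transcript set the length, but the 3D6 ranges of *Cdh2* and *Pkp2* then overlapped, so that separation depended on the length used.

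**Figure D1:**
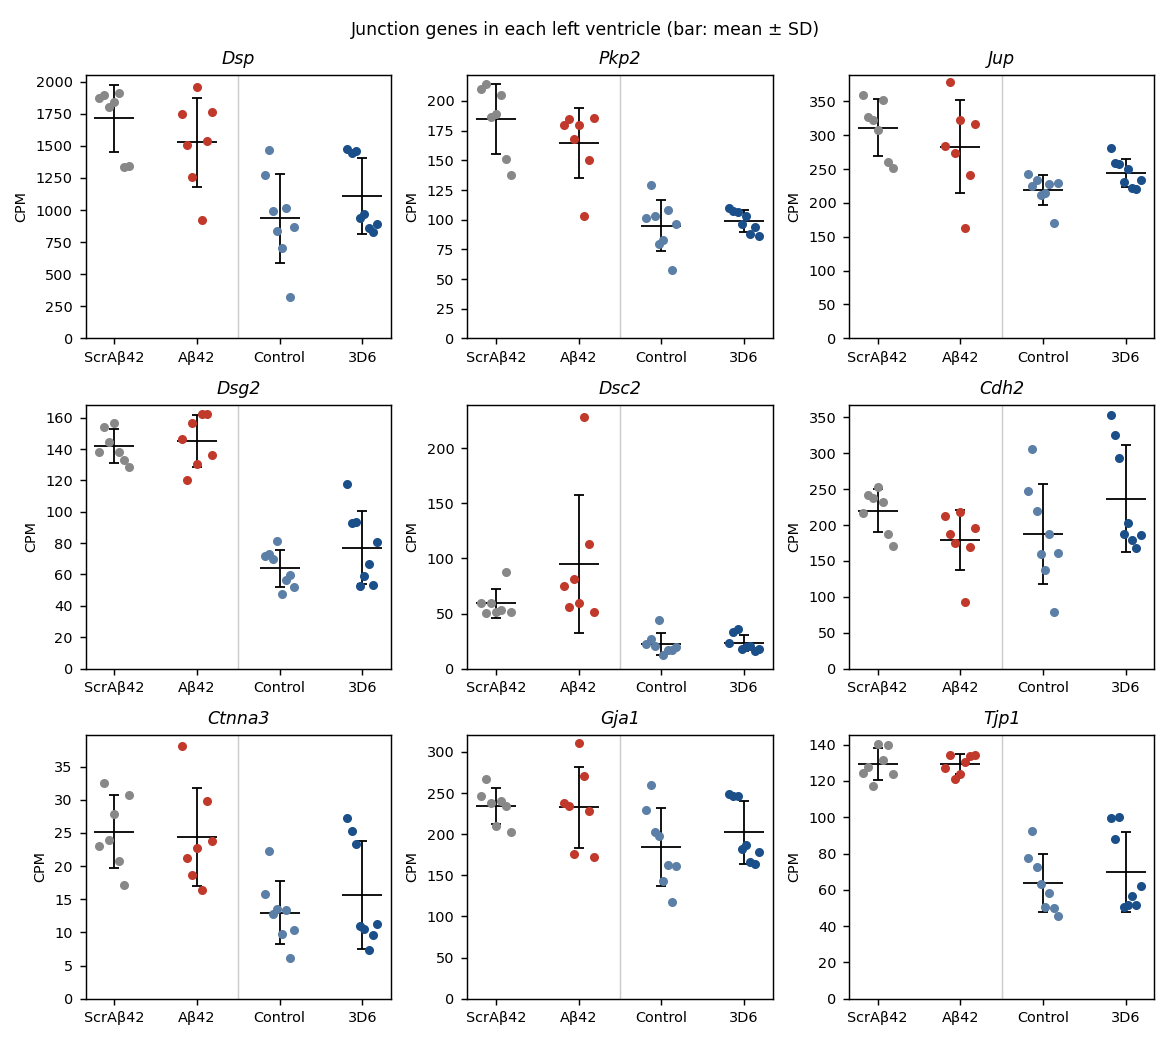
CPM (linear axes from 0, scaled within each study) of each junction gene, 1 point per heart, in the ScrAβ42, Aβ42, control antibody and 3D6 groups, with the mean and SD as bars. The groups overlap for every gene, the highest *Dsc2* point is the most atrial Aβ42 heart at 229 CPM, and the lowest *Dsp* point is the control antibody heart of mouse 22 at 320 CPM.

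The peptide comparison asks whether raising circulating Aβ42 changes the transcripts of the disc. Of the 9 genes, 7 were lower on average in Aβ42 hearts and 2 higher, where 49.5% of all genes tested were lower. Their median log2 fold change was -0.05, beside 0.0016 for all genes. With a covariate for the atrial marker score this median was 0.07. There *Gja1*, *Dsp*, *Pkp2*, *Jup*, *Dsc2* and *Ctnna3* were higher and only *Cdh2*, *Dsg2* and *Tjp1* lower, so the direction depended on that choice. In the quasi-likelihood test of edgeR, adjusted by Benjamini-Hochberg, 0 of the 9 and 0 of all genes passed an adjusted p of 0.05 (0% of 11985). At an unadjusted p under 0.05 there was 1 member, *Dsc2*, where 6.51% of all genes (780) had such a p. No member had groups that did not overlap, which was the case for 0.0918% of all genes. DESeq2 called 12 genes, 4 higher and 8 lower, and limma-voom 0, with 731 and 688 genes at an unadjusted p under 0.05, and neither called a member. *Cdh2* had an unadjusted p under 0.05 with total count scaling, with the mitochondrial share as a covariate (log2 fold change -0.35, edgeR, adjusted p = 0.283), and in 3 of the 14 fits that left out a heart.

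*Dsc2*, encoding desmocollin 2, the desmosomal cadherin that pairs with desmoglein 2, differed most. Its level ran from 50.04 through a median of 53.4 to 88.1 CPM in ScrAβ42 hearts and from 51.2 through a median of 74.8 to 229 CPM in Aβ42 hearts. Of the 7 Aβ42 hearts, 6 were above the ScrAβ42 median and 2 above every ScrAβ42 heart, and the remaining hearts overlapped. The log2 fold change was 0.69 with a standard error of 0.29 and a 95% interval from 0.06 to 1.31, which is 1.61-fold, and it did not pass after adjustment (edgeR, adjusted p = 0.728). The hearts with much *Dsc2* were those with atrial RNA. The 3 highest Aβ42 hearts had 229, 113 and 81.1 CPM of *Dsc2* beside 8388, 4342 and 4690 CPM of atrial markers. The highest ScrAβ42 heart had 88.1 CPM of *Dsc2* beside 3652 CPM of atrial markers, and no other ScrAβ42 heart exceeded 59.5 CPM of *Dsc2* or 31.7 CPM of atrial markers. The group medians of the atrial sum were 1154 CPM (range 12.3 to 8388) with Aβ42 and 10.5 CPM (range 3.81 to 3652) with ScrAβ42. Without the most atrial heart, the log2 fold change of *Dsc2* was 0.30 (edgeR, adjusted p = 0.967). With a covariate for the atrial marker score it was 0.10 (adjusted p = 0.957, edgeR), and among the 3 Aβ42 and 6 ScrAβ42 hearts with at most 1000 CPM of atrial markers it was 0.04 (adjusted p = 0.961, edgeR). With the mitochondrial share as a covariate, by contrast, it was 0.60 (adjusted p = 0.297, edgeR). The summed level of 6 mesothelial markers was also highest in the most atrial heart, at 163 CPM against 20.2 to 123 CPM in the other peptide study hearts, as was that of 4 adipocyte markers, at 277 CPM against 0 to 86.8 CPM. Red cell markers were lower on average with Aβ42, 4 of 4 with a median log2 fold change of -1.37, and 0 of them passed. The part of these markers in the *Dsc2* difference was not tested.

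**Figure D2:**
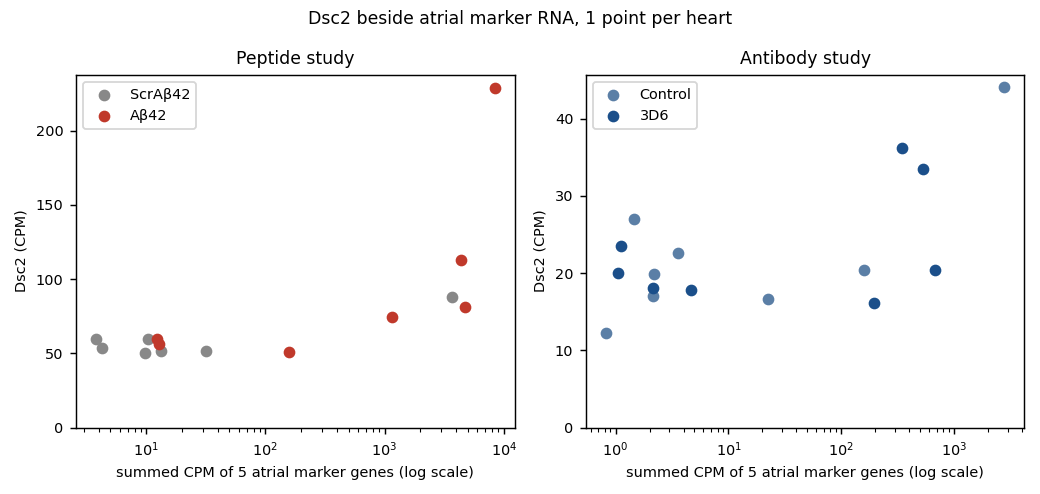
*Dsc2* (CPM, linear axis) against the summed CPM of 5 atrial marker genes (log axis), 1 point per heart, with the peptide study on the left and the antibody study on the right. In the peptide study the 5 hearts above 1000 CPM of atrial markers have 74.8 to 229 CPM of *Dsc2* and the others 50.04 to 59.7 CPM, and in the antibody study mouse 15 is highest on both axes.

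The other desmosome genes were within the spread between hearts. *Dsp* had 1332 to 1908 CPM (median 1845) in ScrAβ42 hearts and 925 to 1958 CPM (median 1536) in Aβ42 hearts, with the lowest and the highest heart of the study both in the Aβ42 group. On the log2 scale the fold change was -0.17, with a 95% interval from -0.49 to 0.16 (edgeR, adjusted p = 0.886). *Pkp2*, encoding plakophilin 2, which brings desmoplakin to the cell border, had 138 to 214 CPM (median 189) in ScrAβ42 hearts and 103 to 186 CPM (median 179.5) in Aβ42 hearts. All 7 Aβ42 hearts were below the ScrAβ42 median and 5 of the 7 ScrAβ42 hearts were above every Aβ42 heart, but the remaining 2 ScrAβ42 hearts, at 138 and 151 CPM, were among the lowest of the study, and the log2 fold change was -0.17, with an interval from -0.45 to 0.11 (edgeR, adjusted p = 0.863). *Jup* ran from 251 to 360 CPM (median 322) in ScrAβ42 hearts and from 162 to 379 CPM (median 284) in Aβ42 hearts. These ranges were nested, and its log2 fold change was -0.14, with an interval from -0.46 to 0.18 (edgeR, adjusted p = 0.912). *Dsg2*, encoding desmoglein 2, varied little, from 129 to 157 CPM with ScrAβ42 and from 120 to 162 CPM with Aβ42. The gene's log2 fold change was 0.03, with an interval from -0.14 to 0.20 (edgeR, adjusted p = 0.962).

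At the adherens junction, *Cdh2* had the lowest fold change of the 9 genes with Aβ42. This gene encodes N-cadherin, the calcium-dependent adhesion molecule that joins the cells. Its level ran from 171 through a median of 232 to 253 CPM in ScrAβ42 hearts and from 92.7 through a median of 187 to 218 CPM in Aβ42 hearts. Every Aβ42 heart was below the ScrAβ42 median, 4 ScrAβ42 hearts were above every Aβ42 heart, and the other 3 overlapped. The log2 fold change was -0.30 with a standard error of 0.15 and an interval from -0.63 to 0.02 (edgeR, adjusted p = 0.773). It was negative in each alternative fit, from -0.36 to -0.11, and was -0.17 among the hearts with at most 1000 CPM of atrial markers (edgeR, adjusted p = 0.825). *Ctnna3*, whose protein links N-cadherin to actin and also binds plakophilin 2, had 17.2 to 32.6 CPM with ScrAβ42 and 16.4 to 38.2 CPM with Aβ42. The ranges were nested, and its log2 fold change was -0.05, with an interval from -0.44 to 0.34 (edgeR, adjusted p = 0.973), and -0.24 among the hearts with at most 1000 CPM of atrial markers (edgeR, adjusted p = 0.810). With a covariate for the atrial marker score its log2 fold change was 0.07 (edgeR, adjusted p = 0.962), so the sign depended on that choice.

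*Gja1*, encoding connexin 43, was close to level. It had 203 to 267 CPM (median 238) in ScrAβ42 hearts and 172 to 311 CPM (median 234) in Aβ42 hearts, so that the 2 highest and the 2 lowest hearts were all in the Aβ42 group. The log2 fold change was -0.01, with an interval from -0.26 to 0.25 (edgeR, adjusted p = 0.995). *Tjp1*, which encodes ZO-1, the scaffold that borders connexin 43 plaques, had 117 to 141 CPM with ScrAβ42 and 121 to 134 CPM with Aβ42. Its coefficient of variation, 6.74% with ScrAβ42 and 4.20% with Aβ42, was the smallest of the 9 genes. Its log2 fold change of -0.0006 had an interval from -0.12 to 0.12 (edgeR, adjusted p = 1.00), the narrowest in either comparison.

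The most atrial heart had the lowest *Dsp*, *Pkp2*, *Jup*, *Cdh2* and *Ctnna3* of its group and the highest *Dsc2* and *Dsg2*. Its share of counts on mitochondrial genes was also the lowest of the study, 12.9%, where the other Aβ42 hearts had 17.3% to 21.7%. Without this heart the log2 fold changes of *Dsp*, *Pkp2*, *Jup* and *Cdh2* were -0.08, -0.08, -0.04 and -0.19. With a covariate for the atrial marker score, those of *Dsp*, *Pkp2* and *Jup* were 0.07, 0.02 and 0.09 and that of *Dsg2* was -0.06 (-0.16 among the hearts with at most 1000 CPM of atrial markers), so the sign of each of these differences depended on that choice. Among the hearts with at most 1000 CPM of atrial markers, *Dsp* and *Pkp2* stayed below 0, at -0.03 and -0.06, and *Jup* was 0.08.

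**Figure D3:**
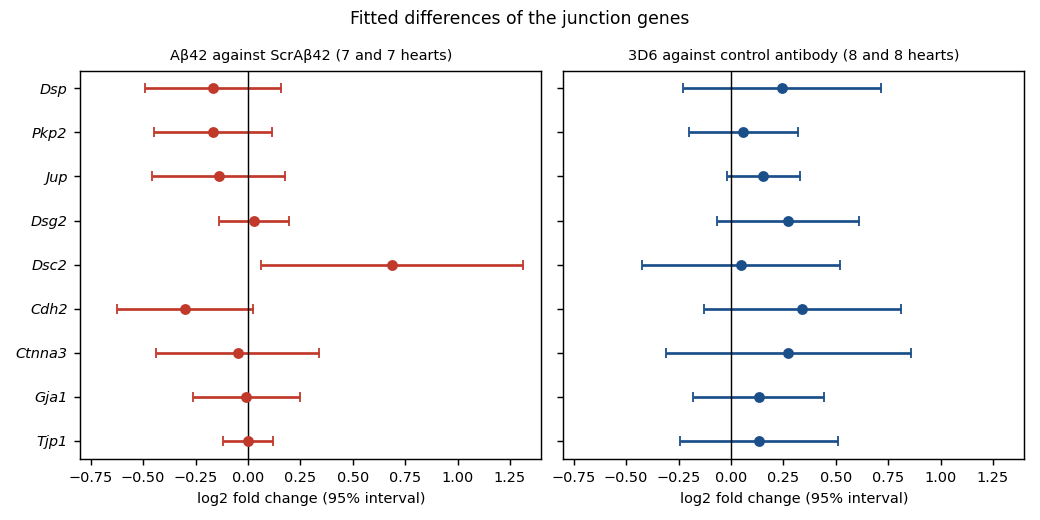
Log2 fold change of each junction gene from edgeR, with its 95% interval, for Aβ42 against ScrAβ42 on the left (7 hearts a group) and 3D6 against control antibody on the right (8 hearts a group). The interval of *Dsc2* with Aβ42, 0.06 to 1.31, is the only one that leaves out 0, and all 9 points of the antibody comparison are above 0.

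The antibody comparison asks whether neutralising amyloid beta changes these transcripts. All 9 genes were higher on average with 3D6, where 47.2% of all genes tested were higher. Their log2 fold changes were between 0.05 and 0.34 with a median of 0.15, beside -0.01 for all genes. None passed: edgeR called 0 of the 9 and 0 of 12146 genes (0%) at an adjusted p under 0.05. No member had an unadjusted p under 0.05, where 3.66% of all genes (444) had one, and no member or other gene had groups that did not overlap (0%). DESeq2 and limma-voom also called 0 genes, with 447 and 431 at an unadjusted p under 0.05. *Jup* was among those of DESeq2 (adjusted p = 0.964), and *Cdh2* had such a p by edgeR when control mouse 8 was left out, at a log2 fold change of 0.48. The 9 genes varied together from heart to heart, as described below, so their shared direction is not 9 separate observations.

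*Cdh2* had the largest difference of the 9. Its level ran from 79.4 through a median of 174 to 306 CPM with the control antibody and from 168 through a median of 195 to 354 CPM with 3D6. Of the 8 3D6 hearts, 7 were above the control median and 2 above every control heart, while 4 control hearts were below every 3D6 heart. The log2 fold change was 0.34 with a standard error of 0.22 and an interval from -0.13 to 0.81 (edgeR, adjusted p = 0.944). *Ctnna3* had 6.13 to 22.3 CPM with the control antibody and 7.32 to 27.2 CPM with 3D6. In this gene 3 of the 3D6 hearts, mice 4, 7 and 12, were above every control heart, while the other 5 were below the control median, at 11.2 CPM or less. As a log2 fold change this came to 0.27, with an interval from -0.31 to 0.86 (edgeR, adjusted p = 0.944).

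Among the desmosome genes, *Jup* had the smallest p of the comparison. It ran from 171 through a median of 226 to 243 CPM in control hearts and from 220 through a median of 242 to 280 CPM in 3D6 hearts, with 4 of 8 3D6 hearts above every control heart. The difference, as a log2 fold change, was 0.15 with a standard error of 0.08 and an interval from -0.02 to 0.33 (edgeR, adjusted p = 0.944). *Dsg2* had 47.3 to 81.2 CPM with the control antibody and 52.7 to 117 CPM with 3D6, and 3 3D6 hearts, again mice 4, 7 and 12, exceeded every control heart. Its log2 fold change was 0.27, with an interval from -0.07 to 0.61 (edgeR, adjusted p = 0.944). *Dsp* had 320 to 1464 CPM (median 931) in control hearts and 827 to 1475 CPM (median 951) in 3D6 hearts, with medians close together and the lowest value in control mouse 22. The gene's log2 fold change was 0.24, with an interval from -0.23 to 0.72 (edgeR, adjusted p = 0.944). *Pkp2* had 57.3 to 129 CPM with the control antibody and 86.6 to 109 CPM with 3D6, so that the 3D6 range lay inside that of the controls. *Dsc2* had 12.2 to 44.1 CPM with the control antibody and 16.1 to 36.3 CPM with 3D6, and its highest value was in control mouse 15, the heart with 2778 CPM of atrial markers. The log2 fold changes of these genes were 0.06 for *Pkp2*, with an interval from -0.20 to 0.32, and 0.05 for *Dsc2*, with an interval from -0.43 to 0.52. Without mouse 15, that of *Dsc2* was 0.27 (edgeR, adjusted p = 0.908). It was -0.01 with a covariate for the atrial marker score and -0.07 with the mitochondrial share as a covariate, so its sign depended on such choices.

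*Gja1* had 117 through a median of 180 to 260 CPM with the control antibody and 164 through a median of 185 to 248 CPM with 3D6. Of the control hearts, 4 were below the 3D6 range and 1 above it, and the medians were close. As a log2 fold change this came to 0.13, with an interval from -0.18 to 0.45 (edgeR, adjusted p = 0.944). *Tjp1* had 45.8 to 92.4 CPM (median 60.8) with the control antibody and 50.5 to 100 CPM (median 59.3) with 3D6. Its median was thus slightly lower with 3D6, while 3D6 mice 12 and 4 were above every control heart. The difference, as a log2 fold change, was 0.13, with an interval from -0.24 to 0.51 (edgeR, adjusted p = 0.944).

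The same hearts were high in gene after gene. Of the 3D6 hearts, mice 4, 7 and 12 held the 3 highest values of *Dsp*, *Cdh2*, *Ctnna3*, *Gja1*, *Tjp1*, *Dsg2*, *Jup*, *Pkp2* and *Dsc2*, with *Dsp* at 1445 to 1475 CPM against 827 to 966 CPM in the other 5. Among the controls, mouse 8 was the highest for *Dsp*, *Pkp2*, *Cdh2*, *Ctnna3*, *Gja1* and *Tjp1*, and mouse 22 the lowest for *Dsp*, *Pkp2*, *Jup*, *Cdh2*, *Ctnna3* and *Gja1*. After each group's mean was taken out, the correlation between 2 members over the 16 hearts had a median of 0.762 across the 36 pairs, 31 of which were over 0.5 and 0 below 0. The highest was 0.974, between *Cdh2* and *Dsp*, and that of *Gja1* and *Dsp* was 0.918. In the peptide study the median over the 36 pairs was -0.041 over 14 hearts, with 21 pairs below 0. There, *Jup* and *Pkp2* were the closest pair at 0.933, and *Dsc2* ran against *Jup*, *Cdh2*, *Pkp2* and *Dsp*, at -0.868, -0.828, -0.797 and -0.762. These values share each heart's library and are given as a description. The fold changes with 3D6 also moved with single hearts. Without control mouse 22, those of *Dsp*, *Gja1* and *Pkp2* were 0.12, 0.07 and -0.01. Without 3D6 mouse 4, those of *Ctnna3*, *Tjp1* and *Dsg2* were 0.12, 0.045 and 0.16, and without control mouse 8 those of *Ctnna3*, *Gja1*, *Tjp1* and *Pkp2* were 0.43, 0.22, 0.23 and 0.14.

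The levels also moved with the mitochondrial share, the percentage of a heart's counts on genes of the mitochondrial genome. This share was between 26% and 37.9% in control antibody hearts (median 31.3%) and between 30.7% and 37.9% in 3D6 hearts (median 33.3%). Over the 16 antibody study hearts, log2 CPM of *Cdh2* followed it with a Pearson r of 0.936 and a Spearman rho of 0.947, *Dsp* with 0.911 and 0.903, and *Gja1* with 0.909 and 0.906. Each of these had a permutation p of 1e-05, the smallest that the permutations can give, and an adjusted p of 6e-05 over the 18 relations computed. Within groups, r was 0.838 for *Cdh2*, 0.826 for *Dsp* and 0.837 for *Gja1* among 3D6 hearts, and 0.973, 0.927 and 0.937 among controls. Without the 2 hearts farthest from the median share, r was 0.874, 0.882 and 0.851. Over the 9 members r then ran from 0.383 for *Dsc2* to 0.882 for *Dsp*. For *Jup* and *Dsg2* it was 0.525 and 0.498, beside 0.793 and 0.598 over all 16 hearts. In all, 8 of the 9 members had an adjusted permutation p under 0.05 for r in the antibody study. These 8 had r of 0.5 or more, a bound chosen after seeing the values, and so did 25.2% of the 12146 genes tested, while 50.8% had an r of that size in either direction. An r of 0.9 or more was found for 3 of the 9 members and 1.47% of all genes. The median r was 0.841 over the members and -0.061 over all genes. The exception was *Dsc2*, with r of 0.400 (adjusted permutation p = 0.149) and rho of 0.568 (adjusted permutation p = 0.0472).

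With the mitochondrial share as a covariate, the antibody log2 fold change was lower for each of the 9 genes. The median over the 9 members was -0.03 in place of 0.15. *Cdh2*, *Dsp*, *Jup* and *Dsg2* were above 0, at 0.09, 0.01, 0.09 and 0.13, whereas *Gja1*, *Pkp2*, *Dsc2*, *Ctnna3* and *Tjp1* had log2 fold changes of -0.03, -0.06, -0.07, -0.07 and -0.06. In the peptide study, *Dsp*, *Pkp2*, *Jup* and *Cdh2* also had positive r with the share, 0.686, 0.666, 0.703 and 0.634, with adjusted permutation p of 0.0149, 0.0178, 0.0113 and 0.0232. Without the 2 hearts farthest from the median, the most atrial Aβ42 heart and the ScrAβ42 heart with atrial RNA, r was 0.267, 0.232, 0.363 and 0.241, so these relations rest on those hearts, and rho had an adjusted permutation p of 0.111 or more for each. *Dsc2* had a negative r there, -0.597 (adjusted permutation p = 0.0334), which was 0.031 without these hearts. *Gja1* had an r of 0.067 (adjusted permutation p = 0.818). In the peptide study 4 of the 9 members had r of 0.5 or more, where 15.9% of the 11985 genes tested did, and 5 had an r of that size in either direction, where 32.1% of all genes did. An r of 0.9 or more was found there for 0 members and 0.0668% of all genes. In the antibody study *Myl2* was at 2617 to 3427 CPM in 3D6 mice 4, 7 and 12, the hearts with high members, and at 4706 to 5796 CPM in the other 5 3D6 hearts. Control mouse 22, with low members, had the highest *Myl2* level of the study, 7622 CPM. Not every heart followed this pattern. Control mouse 15 had 3245 CPM of *Myl2* with *Dsp* at only 840 CPM, and control mouse 3 had 4629 CPM of *Myl2* with *Dsp* at 1271 CPM. *Myh6*, another of the 8 cardiomyocyte markers, ran the other way in the 3D6 hearts. It was at 27246 to 27431 CPM in mice 4, 7 and 12 and at 23220 to 26565 CPM in the other 5. The sum of the 8 markers overlapped, at 48284 to 50621 CPM in mice 4, 7 and 12 and 50142 to 57287 CPM in the other 5. The part of these properties of the libraries in the members' levels was not tested.

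**Figure D4:**
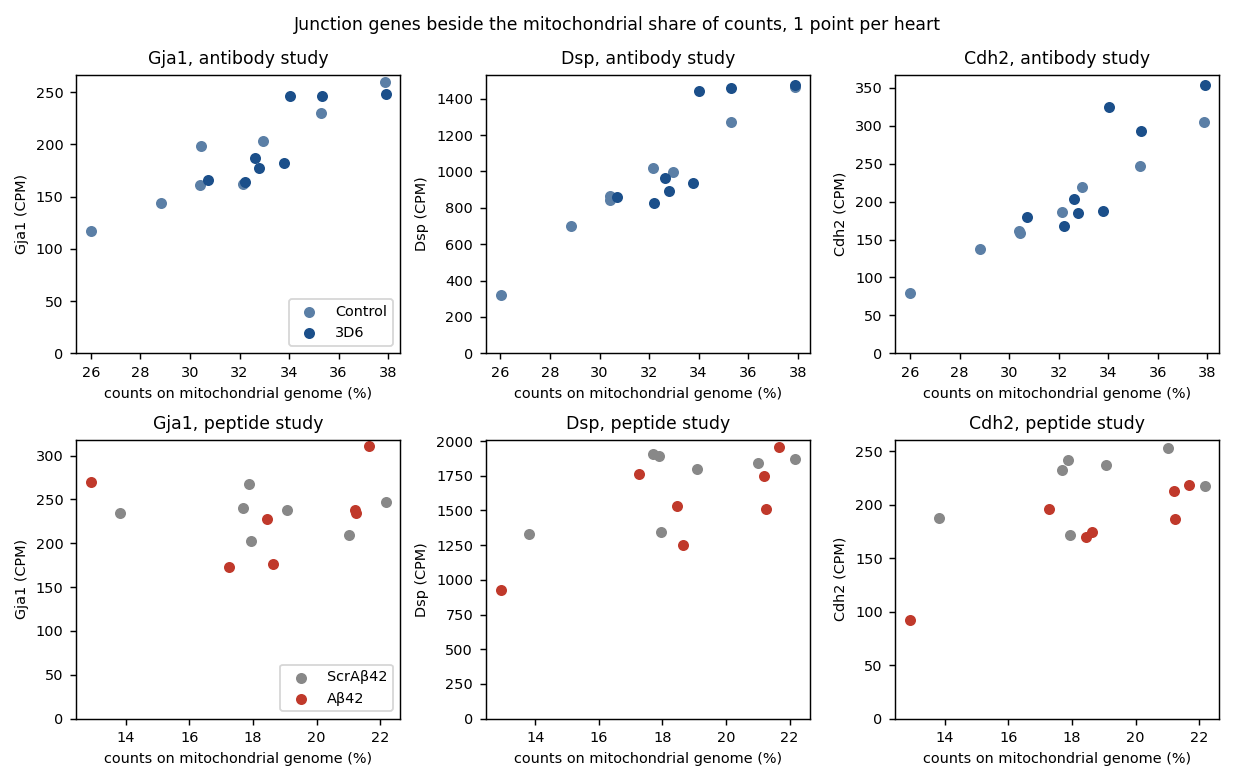
*Gja1*, *Dsp* and *Cdh2* (CPM, linear axes from 0) against the percentage of counts on the mitochondrial genome, 1 point per heart, with the antibody study above and the peptide study below. In the antibody study each gene climbs along the share in both groups (r of log2 CPM 0.909, 0.911 and 0.936), and in the peptide study the lowest *Dsp* and *Cdh2* points are the heart with a share of 12.9%.

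The genes that varied most like the members were named by the correlation of their log2 CPM with the mean z-score of the 9 genes, after the group means were taken out. In the antibody study these were *Nedd4*, encoding a ubiquitin ligase, with r of 0.991 over 16 hearts, *Igf2r*, encoding the receptor for insulin-like growth factor 2, with 0.989, and *Clasp1*, encoding a microtubule-binding protein, with 0.986. In the peptide study they included *Gfod1*, with r of 0.930 over 14 hearts, and *Insr*, encoding the insulin receptor, with 0.919. They were picked as the highest of all genes tested, and no test was made of them. The members themselves had r of 0.676 (*Dsc2*) to 0.976 (*Gja1*) with this mean in the antibody study, but in the peptide study r was 0.868 for *Dsp* and 0.286, 0.154, 0.119 and -0.475 for *Gja1*, *Tjp1*, *Dsg2* and *Dsc2*, so a gene like the mean there is not like each member. *Gfod1* and *Insr* had r of 0.965 and 0.901 in the antibody study, whose hearts are other mice. Conversely, *Nedd4*, *Igf2r* and *Clasp1* had 0.555, 0.699 and 0.581 in the peptide study.

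The antibody study was deposited per transcript, which shows the forms behind each gene. *Gja1*, *Dsg2*, *Pkp2* and *Jup* were each counted almost wholly from 1 transcript, *Gja1-201* (98.6% of estimated counts), *Dsg2-201* (99.3%), *Pkp2-201* (99.1%) and *Jup-201* (96.7%). *Ctnna3-202* made up 91.9% of *Ctnna3*, and from 77.6% to 100% in single hearts. *Dsp* was split between *Dsp-201*, with a coding sequence of 8649 bases, at 91.6%, and the shorter *Dsp-202*, with 6852 coding bases, at 8.31%. *Cdh2* was split between *Cdh2-202* at 60.3% and *Cdh2-201* at 39.6%. *Dsc2* was counted from *Dsc2-201* at 70.5%, *Dsc2-202* at 19.4% and *Dsc2-204* at 7.45%, and *Tjp1* from *Tjp1-202* at 53.6%, *Tjp1-201* at 40.9% and *Tjp1-207*, annotated as subject to nonsense-mediated decay, at 5.03%. By edgeR, 0 of 20857 transcripts passed (0%), no transcript of a member had an unadjusted p under 0.05, where 2.40% of all transcripts (500) had one, and the adjusted p of each was 1.00. DESeq2 called 9 transcripts and limma-voom 0. How reads shared between transcripts were assigned adds an error that these tests do not hold.

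Control mouse 22, the heart with least *Dsp*, differed in the form as well as in the amount. *Dsp-202* made up 24.5% of its *Dsp* estimated counts, where the other 15 hearts had 5.96% to 12.6%. Its *Dsp-202* estimated count, 549, was inside the range of the others, 404 to 905. *Tjp1-201* made up 7.07% of *Tjp1* in this heart and 23.5% to 56.0% in the others. The highest 3 *Tjp1-201* shares among 3D6 hearts, 52.9%, 55.7% and 56.0%, were those of mice 12, 4 and 7. *Tjp1-202* had a log2 fold change of 0.01 with 3D6, with an interval from -0.22 to 0.24, and *Tjp1-201* one of 0.42, with an interval from -0.52 to 1.37 (edgeR, adjusted p = 1.00 for each). That of *Tjp1-201* moved with single hearts, to 0.26 without 3D6 mouse 4, 0.28 without control mouse 22 and 0.67 without control mouse 8. *Dsc2-202* was listed at 0 in 3 hearts, 3D6 mouse 21 and control mice 18 and 23, in which *Dsc2-201* had its highest shares, 86.9%, 90.4% and 91.9%. The shares of a gene's transcripts add up to its whole, so a transcript listed at 0 leaves larger shares to the others.

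**Figure D5:**
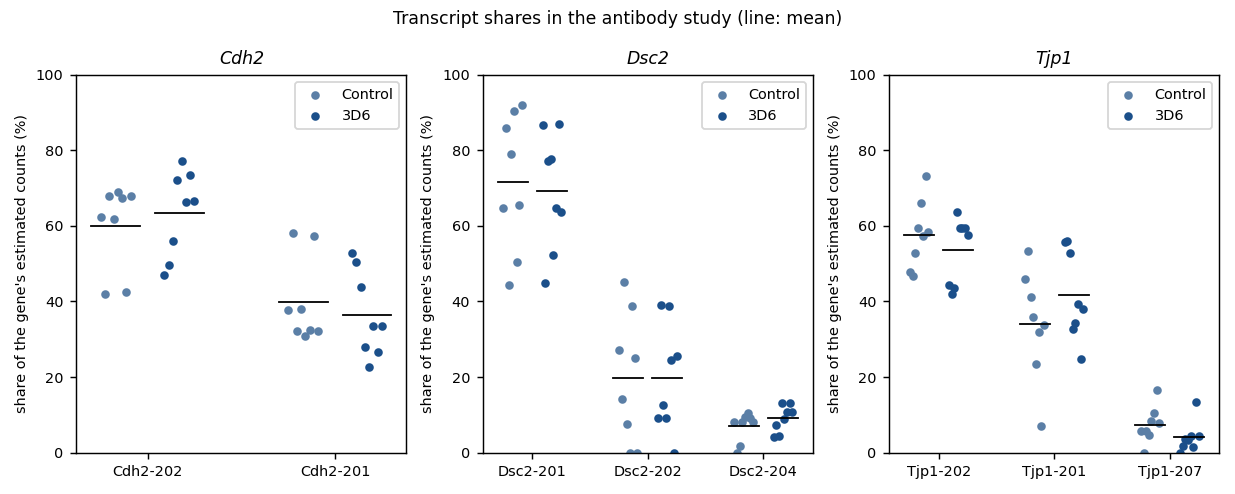
Share of the gene's estimated counts (%) for each transcript of *Cdh2*, *Dsc2* and *Tjp1* with at least 5% of them, 1 point per antibody study heart, with the mean as a line, in the control and 3D6 groups. The groups overlap for every transcript, and the lowest *Tjp1-201* point, at 7.07%, is control mouse 22.

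The members' partners were taken from 6 further lists, and none of their genes passed in either comparison by edgeR. Of 14 adherens junction and actin anchor genes, 5 were higher and 9 lower with Aβ42, with a median log2 fold change of -0.06, and 12 were higher and 2 lower with 3D6, with a median of 0.12. The smallest p of this list with Aβ42 was that of *Xirp1*, encoding an actin-binding protein of the disc, which had 342 to 530 CPM (median 445) with ScrAβ42 and 238 to 425 CPM (median 335) with Aβ42. On the log2 scale the fold change was -0.39, with an interval from -0.64 to -0.13 (edgeR, adjusted p = 0.642), and it was -0.27 among the hearts with at most 1000 CPM of atrial markers. *Pdlim1*, an actin-associated protein, had -0.27 (edgeR, adjusted p = 0.703), and -0.17 among those hearts. With 3D6 the smallest p was that of *Lmo7*, at a log2 fold change of 0.18 (edgeR, adjusted p = 0.944), which was 0.07 with the mitochondrial share as a covariate. Of the 10 tight junction and mixed junction partners, 9 could be tested. With Aβ42, 7 of these were lower and 2 higher, and *Pkp4*, a plakophilin, had 0.14 (edgeR, adjusted p = 0.748), and 0.05 among the hearts with at most 1000 CPM of atrial markers. With 3D6, 5 were higher and 4 lower, and *Tmem65*, a disc membrane protein, had 0.27 (edgeR, adjusted p = 0.944), and 0.13 with the mitochondrial share as a covariate.

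Of 16 connexins other than *Gja1*, 4 could be tested in each study. *Gja5*, encoding connexin 40 of the atria and conduction system, had 3.86 to 15.9 CPM (median 6.09) with ScrAβ42 and 4.29 to 66.1 CPM (median 15.8) with Aβ42. Its log2 fold change was 1.69, with an interval from 0.45 to 2.94 (edgeR, adjusted p = 0.693). It was 0.34 with a covariate for the atrial marker score and -0.20 among hearts with at most 1000 CPM of atrial markers, so its sign depended on the hearts with atrial RNA. With 3D6 the smallest p among the connexins was that of *Gjc1*, encoding connexin 45, at a log2 fold change of -0.21 (edgeR, adjusted p = 0.944), or -0.12 with the mitochondrial share as a covariate.

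Of 18 genes of the sodium channel complex, which shares the disc with connexin 43, 7 were higher and 9 lower with Aβ42 among 16 tested, with a median log2 fold change of -0.003. *Fgf12*, a regulator of sodium channels, had 0 to 36.2 CPM (median 0.193) with ScrAβ42 and 0 to 106 CPM (median 17.1) with Aβ42, and a log2 fold change of 2.51 (edgeR, adjusted p = 0.763) that was 0.47 with the atrial covariate and 3.68 with the mitochondrial share. It was 1.80 without the most atrial heart and 7.001 without the ScrAβ42 heart with atrial RNA, so its size rested on single hearts. With 3D6, 9 of 14 were higher and 5 lower, with a median of 0.14. *Scn4b*, a beta subunit of the channel, had 24 to 104 CPM (median 61.0) in control hearts and 68.6 to 124 CPM (median 84.2) in 3D6 hearts. As a log2 fold change this came to 0.45 (edgeR, adjusted p = 0.944), and 0.24 with the mitochondrial share as a covariate.

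Among 21 pacemaker and conduction system genes, 8 were higher and 10 lower with Aβ42 and 8 higher and 6 lower with 3D6. *Hcn4*, encoding the pacemaker channel, had 5.48 to 13.4 CPM (median 8.06) with ScrAβ42 and 1.51 to 11.4 CPM (median 3.71) with Aβ42. The difference, as a log2 fold change, was -0.85, with an interval from -1.60 to -0.09 (edgeR, adjusted p = 0.725), and it was -0.85 also among the hearts with at most 1000 CPM of atrial markers and -1.20 with a covariate for the atrial marker score. *Cacna1g*, encoding a T-type calcium channel, had -0.45 (edgeR, adjusted p = 0.742), and -0.62 among those hearts. With 3D6, *Hcn4* had 0.46, with an interval from -0.01 to 0.92 (edgeR, adjusted p = 0.944). The studies use different mice and treatments, and no test compared them.

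Of 12 desmosome genes known mainly from epithelia, 3 could be tested with Aβ42 and 2 with 3D6. *Evpl*, encoding envoplakin, had 0.965 to 2.70 CPM with ScrAβ42 and 2.06 to 4.38 CPM with Aβ42, a log2 fold change of 0.60 (edgeR, adjusted p = 0.709) that was 0.14 among the hearts with at most 1000 CPM of atrial markers. Its counts were low, and the filter of at least 10 counts in every heart did not keep it. *Perp*, a desmosome-associated membrane protein, had 35.1 to 77.7 CPM in control hearts and 57.0 to 79.1 CPM in 3D6 hearts (log2 fold change 0.09, edgeR adjusted p = 0.944), and without control mouse 22 its log2 fold change was 0.0028. The 3 keratinocyte markers summed to at most 3.55 CPM in any heart. Markers of other cell types had log2 fold changes below 0 with 3D6 in most sets, 5 of 5 endothelial, 6 of 6 fibroblast, 5 of 5 mural, 4 of 4 red cell, 4 of 5 macrophage and 2 of 2 mesothelial markers tested. Of the 8 cardiomyocyte markers, 5 were below 0 and 3 above, with a median of -0.04. The 4 atrial markers tested were also below 0, but control mouse 15 had 2778 CPM over all 5 atrial markers and the other controls at most 159 CPM, and the median of this sum was the other way, 98.6 CPM with 3D6 and 2.88 CPM in controls. None of these genes passed the test, and their part in the members' differences was not tested.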

How the data were processed

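RNA of 30 left ventricles was sequenced with a stranded total RNA kit. The authors quantified trimmed reads against GENCODE vM24 mouse transcripts with Salmon (version not given in the sources used here). For the peptide study they deposited whole counts per gene, not normalized (49671 genes); how transcripts became genes is not given in the sources used here. For the antibody study they deposited estimated counts per transcript (142647), which were summed here to 55263 genes through GENCODE vM21 of GRCm38 and rounded. That release lists 99.48% of the genes and 99.21% of the transcripts, and 0.38% of estimated counts fell outside it. Groups came from sample labels. A further 1 per-heart count column fitted no label and stayed out.

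Each study was tested separately with edgeR 4.0.16 in R 4.3.3 (quasi-likelihood, TMM, mean of at least 10 counts per heart, two-sided, Benjamini-Hochberg over all genes tested, threshold 0.05). CPM use TMM-scaled library sizes, and log2 CPM a prior count of 2. CPM per kb use transcript lengths weighted by the estimated counts of the antibody study. The same lengths were used for the peptide study, whose counts are per gene. Correlations with the mitochondrial share used 100000 permutations, two-sided. Depth limits precision: a member had 43 counts or more in every heart. Libraries of a group differed by more than sampling noise. The test was also run on simulated counts, but the outcome is not given here and no statement above rests on it. Alternatives were DESeq2 1.42.0, limma-voom 3.58.1, RLE factors, total count scaling, other count filters, both covariates and leaving out each heart. The members and all lists were chosen with earlier results of these data known. The genes named are the 9 members, the smallest p of each list, list genes with an unadjusted p under 0.05, the 3 genes per study most like the members (1 of these is not reported here), and transcripts with at least 5% of a member's estimated counts. Promoters are from RefSeq, GRCm38.p6.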

Additional observations from a re-analysis of the deposited data

Results flagged for a closer look

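In 4 of the 36 combinations of a member and a group, the lowest or highest heart stood apart from the others of its group by more than Dixon's criterion, applied to log2 CPM, allows at 95%, and chance alone gives about 1 in 20 of such groups. The levels are given here as CPM. *Pkp2* was at 103 CPM in the most atrial Aβ42 heart, where the next lowest heart of the group had 151 CPM. *Cdh2* was at 92.7 CPM in the same heart, where the next lowest had 170 CPM. *Dsc2* was at 88.1 CPM in the ScrAβ42 heart with atrial RNA, where the next highest had 59.5 CPM. *Jup* was at 171 CPM in control antibody mouse 22, where the next lowest had 211 CPM. These 2 peptide study hearts also had the lowest mitochondrial shares of their study and 8388 and 3652 CPM of atrial markers, and mouse 22 had the lowest mitochondrial share of the antibody study, 26%. The part of these properties in the outlying levels was not tested.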

How the results depend on the processing

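No member was called under any alternative fitted in either comparison. Genes called with Aβ42 numbered 0 by edgeR, 12 by DESeq2 and 0 to 3 when each heart was left out, with 3 without the Aβ42 heart of the highest *Jup* level and 1 without the ScrAβ42 heart with atrial RNA, and transcripts called with 3D6 numbered 9 by DESeq2. The median log2 fold change of the members with Aβ42 was 0.0719 with a covariate for the atrial marker score. The following log2 fold changes changed sign. With Aβ42, *Tjp1* was 0.0031 by limma-voom, 0.0254 by total count scaling, 0.0024 with no filter, 0.0051 with at least 10 counts in every heart and 0.0012 with the mitochondrial share, and *Gja1* was 0.0195 by total count scaling, which moved the median of all genes to 0.0292. With the atrial marker score, *Gja1*, *Dsp*, *Pkp2*, *Jup*, *Dsg2* and *Ctnna3* were 0.0719, 0.0748, 0.0192, 0.0944, -0.0577 and 0.0742. Among hearts with at most 1000 CPM of atrial markers, a choice made after seeing the data, *Gja1*, *Jup*, *Dsg2*, *Tjp1* and *Gja5* were 0.0295, 0.0828, -0.1582, 0.034 and -0.1977, and *Fgf12* had too few counts there to be tested. With 3D6, *Dsc2* was -0.0023 by total count scaling (median of all genes -0.0572) and -0.0068 with the atrial marker score, and with the mitochondrial share *Gja1*, *Pkp2*, *Dsc2*, *Ctnna3*, *Tjp1* and *Perp* were -0.0322, -0.0594, -0.0663, -0.0661, -0.064 and -0.0006. Transcript *Dsc2-201* was 0.0454 by limma-voom. Leaving out each heart gave -0.0233 to 0.0205 for *Tjp1*, -0.091 to 0.0527 for *Gja1* and -0.191 to 0.0307 for *Ctnna3* with Aβ42, and -0.072 to 0.2701 for *Dsc2*, -0.0138 to 0.1353 for *Pkp2*, -0.0445 to 0.0519 for *Tjp1-202*, -0.2127 to 0.2263 for *Dsc2-201*, -0.0109 to 0.1345 for *Pkp2-201* and -0.1745 to 0.5205 for *Dsc2-202* with 3D6. The unadjusted p of *Dsc2* with Aβ42 was under 0.05 in 8 of 14 such fits and at most 0.115, without the most atrial heart. Except where a covariate or the hearts left out are named, the cause was not tested. No paired analysis was possible because the groups compared share no replicate numbers. The number of hearts, 7 or 8 a group, limits the precision. Where an interval is given beside a fold change, its width shows that precision.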
